A study of Homo sapiens with 24 samples.

Results

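Parental HCT116 cells, a human colorectal cancer line, were compared after oxaliplatin with and without an induced adenovirus E1A transgene. The members of the comparison were chosen by treatment label alone: 3 samples given doxycycline and oxaliplatin against 3 samples given oxaliplatin without doxycycline, 6 of the 24 samples of the series. All 6 came from cells with the genotype HCT116 TetOn-E1A and all 6 received 25 µM oxaliplatin for 24 h. The 3 E1A + oxaliplatin samples also received 0.5 µg/mL doxycycline, added 3 h before the drug. The untreated and E1A samples of HCT116 cells (3 each) and the oxaliplatin and E1A + oxaliplatin samples of the resistant derivative HCT116 oxpl-R (3 each) served for comparison. Those HCT116 E1A samples received 0.5 µg/mL doxycycline without oxaliplatin, and the time of its addition was not among the values used here. All of those HCT116 oxpl-R samples received 25 µM oxaliplatin for 24 h. In the E1A + oxaliplatin group of that line, 0.5 µg/mL doxycycline was added 3 h before the drug. HCT116 oxpl-R cells were obtained from HCT116 cells by repeated treatment with oxaliplatin and carry the TetOn-E1A genotype too. Doxycycline was never given to cells lacking the transgene, so the action of doxycycline and that of E1A cannot be told apart. Whether the TetOn-E1A cells are 1 clone or a mixed population is not given in the sources used here.

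E1A is the first protein made by adenovirus. It binds the retinoblastoma protein family and so frees E2F factors, which drive genes of DNA replication, and it binds the acetyltransferases p300 and CBP and the corepressor CtBP. Oxaliplatin is a platinum drug whose DNA adducts activate p53, which in turn drives CDKN1A and other genes of cell-cycle arrest. HCT116 cells carry intact p53. The comparison therefore asks which transcripts E1A alters in cells that are already responding to platinum damage.

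RNA was sequenced and quantified per gene as estimated counts. The count table ends, alphabetically, at SETP6, and its totals were 30205143 to 31432309 counts in the oxaliplatin samples and 27543325 to 30034856 in the E1A + oxaliplatin samples. Genes after SETP6 were tested in a second table of count-like values, read here to TSC22D3, and genes later in the alphabet were not analysed here. Values below are counts normalized for library size (TMM) over the 6 samples. Where other conditions are set beside them, the scaling covers all 24 samples and the values differ slightly. The p-values come from edgeR's quasi-likelihood test, adjusted over all genes of a table by the Benjamini-Hochberg method, and a gene was called at an adjusted p below 0.05. Replicates are labelled biological, and no 2 libraries of the 6 were identical. Of 15 colon epithelial markers with values, 8 averaged at least 100 counts, among them EPCAM, CDH1, KRT8, KRT18 and KRT19, whereas CDX1, LGALS4, CEACAM5 and CEACAM6 averaged at most 10. Of 10 fibroblast markers, 8 averaged at most 10 counts, with COL1A1 and PDGFRB above, and of 12 leukocyte and endothelial markers 9 did. The summed fibroblast markers were 757 to 894 normalized counts without and 762 to 1013 with E1A. The summed leukocyte and endothelial markers were 142 to 216 without and 206 to 223 with E1A.

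The transgene was quantified in the tables as Ad5-E1A. Scaled over all 24 samples, it stood at 161, 184 and 182 normalized counts in HCT116 cells after oxaliplatin and at 5826, 15713 and 14447 after E1A + oxaliplatin. All 3 induced samples lay far above all 3 uninduced samples, and replicate 1 held 0.386 of the mean of the other two. The fitted log2FC was 6.09 ± 0.39 (SE, n = 3 per group), with an adjusted p of 0.00019 by edgeR's quasi-likelihood test. Signal without doxycycline, between 119 and 343 normalized counts in all 12 uninduced samples of the series, was low but present in each. Without oxaliplatin, doxycycline gave 22938, 21989 and 23817 normalized counts against 171, 139 and 119 in untreated cells. The mean under oxaliplatin was 0.523 of the mean without it. The induction time of the samples without oxaliplatin was not among the values used here, and its part in this ratio was not tested. The exact two-sided permutation test of the difference between these means gave p = 0.10, the smallest value 3 against 3 samples allow.

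2 of the 6 libraries stood apart: oxaliplatin replicate 3 and E1A + oxaliplatin replicate 1. On log2 counts their correlation with each other was 0.977, whereas oxaliplatin replicate 3 reached at most 0.960 with its own group and E1A + oxaliplatin replicate 1 at most 0.962. The other replicates correlated at 0.986 within the oxaliplatin group and 0.988 within the E1A + oxaliplatin group. Both libraries held fewer counts of short transcripts and more of long ones. For transcripts under 1 kb the median deviation from the mean of the 6 libraries was −0.39 (log2) in oxaliplatin replicate 3 and −0.26 in E1A + oxaliplatin replicate 1, and for those over 7 kb it was 0.40 and 0.20. B2M, the short light chain of MHC class I, fell in these libraries by more than those medians. It counted 14673, 16431 and 3317 without E1A and 3044, 14285 and 13565 with E1A, so that the low sample of each group was the library that stood apart. GOLGB1, a Golgi protein with a very long transcript and chosen here after its values were seen, went the other way, with 222, 223 and 1638 against 778, 240 and 248. Not every short gene followed B2M. MT2A, a metallothionein gene spanning under 1 kb, counted 5587, 4802 and 5121 without and 4736, 4322 and 3511 with E1A. No label sets these 2 libraries apart. Because each group holds 1 of them, they widened the spread within the groups: the common biological coefficient of variation was 0.313, against 0.128 without both and 0.127 between the untreated and E1A samples. RNA integrity was not among the values used here, and its part in the results was not tested.

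**Figure D1:**
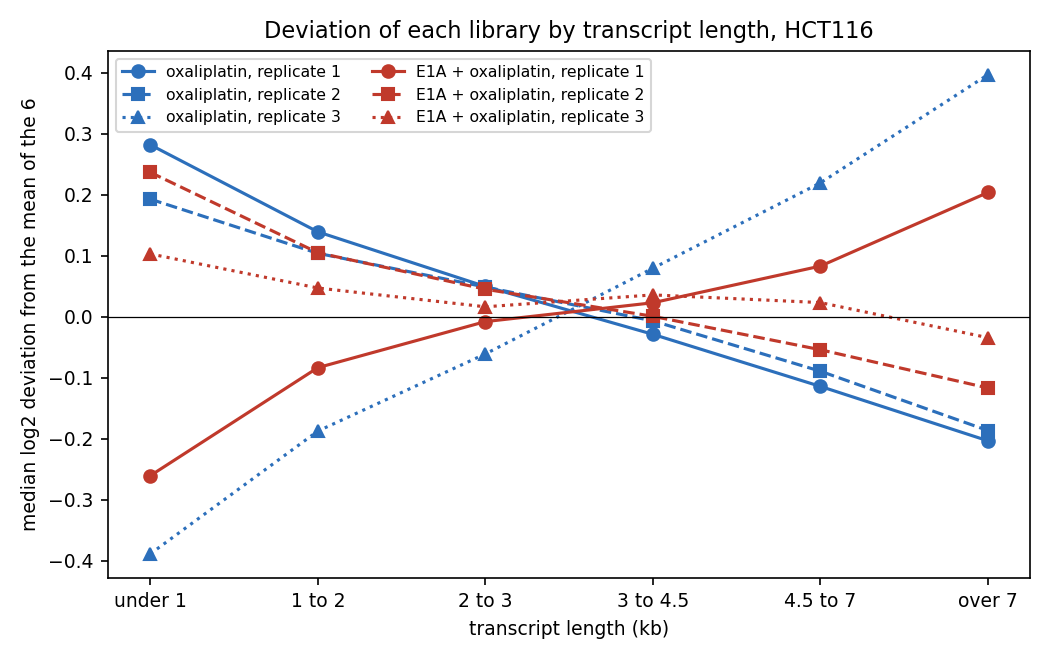
Median log2 deviation of each of the 6 libraries from their mean (vertical axis) by transcript length in kb (horizontal axis); blue lines are oxaliplatin samples and red lines E1A + oxaliplatin samples. Oxaliplatin replicate 3 and E1A + oxaliplatin replicate 1 rise from −0.39 and −0.26 under 1 kb to 0.40 and 0.20 over 7 kb, while the other 4 lines run downwards.

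Addition of E1A to oxaliplatin raised 4 of 16259 genes of the count table, 0.0246%, and lowered 0 (0%). The 4 were the transgene itself, EGR1 and JUNB, both immediate early transcription factors, and HSPA1B, an inducible HSP70 chaperone. All 4 also passed |log2FC| > 1. At an unadjusted p below 0.05, 205 genes were higher and 100 lower. DESeq2 called 18 higher and 1 lower. Among the 2910 genes after SETP6 edgeR called 0 (0%), with 54 at an unadjusted p below 0.05 and 3 called by DESeq2. Over both tables, all 3 samples with E1A lay above all 3 without in 599 of 19169 genes (3.12%) and below in 538 (2.81%), and the median log2FC of all these genes was 0.01.

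**Figure D2:**
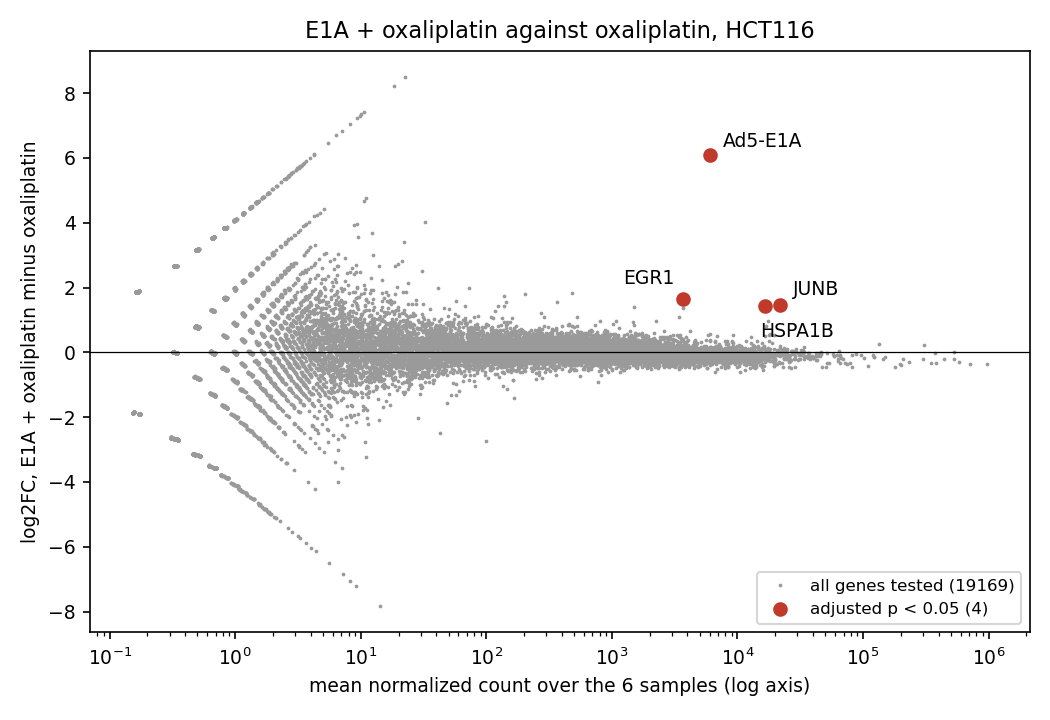
Log2FC of E1A + oxaliplatin minus oxaliplatin (vertical axis) against the mean normalized count of the 6 samples (horizontal log axis) for the 19169 genes tested in both tables. The 4 called genes are red; Ad5-E1A lies at 6.09, and EGR1, JUNB and HSPA1B between 1.43 and 1.65, at mean counts where most genes lie close to 0.

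EGR1 is a zinc finger factor that serum and stress induce within minutes in many cells (chromosome 5, 138465479 to 138469303, plus strand, GRCh38). It counted 1635, 1711 and 1988 after oxaliplatin and 5554, 5367 and 5864 after E1A + oxaliplatin. The groups did not overlap, and E1A + oxaliplatin replicate 1, with the lowest transgene level, lay between the other two. The means were 1778 ± 186 and 5595 ± 251 (SD, n = 3), a 3.15-fold rise (log2FC 1.65 ± 0.17, edgeR adjusted p = 0.012).

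JUNB, an AP-1 subunit of the JUN family (chromosome 19, 12791486 to 12793315, plus strand), counted 12672, 11102 and 11326 without and 31642, 33491 and 31246 with E1A. Its groups were again well apart and tight within themselves. The mean rose from 11700 ± 849 to 32126 ± 1199 (SD, n = 3), or 2.75-fold (log2FC 1.46 ± 0.16, edgeR adjusted p = 0.0169).

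HSPA1B (chromosome 6, 31827738 to 31830254, plus strand) counted 8477, 8827 and 9442 without and 26080, 23220 and 22596 with E1A. The groups did not overlap. The mean rose from 8916 ± 489 to 23965 ± 1858 (SD, n = 3), or 2.69-fold (log2FC 1.43 ± 0.165, edgeR adjusted p = 0.0169). HSPA1A, its near-identical neighbour on chromosome 6, shares reads with it, so the split between them is uncertain. HSPA1A counted 215, 193 and 149 without and 493, 487 and 646 with E1A, also without overlap (log2FC 1.55 ± 0.26, edgeR adjusted p = 0.242).

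With 1 library left out, these calls often failed while the folds moved little. The log2FC of EGR1 stayed between 1.60 and 1.74, that of JUNB between 1.42 and 1.52 and that of HSPA1B between 1.36 and 1.47. EGR1 lost its call without oxaliplatin replicate 1 (adjusted p = 0.078), oxaliplatin replicate 2 (0.142) or E1A + oxaliplatin replicate 3 (0.095), by edgeR. JUNB and HSPA1B kept theirs in 1 of these 6 fits, the one without E1A + oxaliplatin replicate 1 (adjusted p = 0.0303 for both). In the 5 others their edgeR adjusted p ranged from 0.0593 to 0.154. On the second table, which gave the same 4 calls with all 6 libraries, the transgene was called in all 6 of these fits, JUNB in 1 and EGR1 and HSPA1B in 0.

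The sequences upstream of the 3 cellular genes are shown because these genes rose together. Each is the 250 bases before the annotated start (RefSeq, GRCh38.p14, plus strand), at chr5:138465229-138465478 for EGR1, chr19:12791236-12791485 for JUNB and chr6:31827488-31827737 for HSPA1B; all 3 genes were found in the table. Capitals mark matches, on either strand, to the CArG box, the core of the serum response element, to GAANNTTC, the core of the heat shock element, to the CCAAT box and to TATAAA.
EGR1: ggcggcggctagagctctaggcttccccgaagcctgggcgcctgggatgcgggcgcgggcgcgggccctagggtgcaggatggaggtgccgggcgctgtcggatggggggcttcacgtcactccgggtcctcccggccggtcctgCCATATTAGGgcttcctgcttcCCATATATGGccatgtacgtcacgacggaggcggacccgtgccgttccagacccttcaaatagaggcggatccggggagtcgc
JUNB: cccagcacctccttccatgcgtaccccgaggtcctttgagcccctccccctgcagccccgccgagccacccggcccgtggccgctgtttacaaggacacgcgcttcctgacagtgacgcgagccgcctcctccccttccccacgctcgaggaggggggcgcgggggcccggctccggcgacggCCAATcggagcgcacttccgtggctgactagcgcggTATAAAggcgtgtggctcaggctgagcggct
HSPA1B: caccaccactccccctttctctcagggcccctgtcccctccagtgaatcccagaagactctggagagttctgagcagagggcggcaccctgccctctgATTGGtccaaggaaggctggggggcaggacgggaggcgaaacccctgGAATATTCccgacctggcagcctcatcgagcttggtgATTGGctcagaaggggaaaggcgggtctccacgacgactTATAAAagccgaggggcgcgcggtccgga
EGR1 held 2 CArG boxes, beginning 105 and 83 bases before the start, a motif found in 1.16% of the 35116 promoter windows of this length. HSPA1B held 1 GAANNTTC match, 105 bases before the start (5.78% of windows), 2 CCAAT boxes, at 152 and 68 bases (32% of windows), and TATAAA at 29 bases (10.7% of windows). JUNB held 1 CCAAT box at 67 bases and TATAAA at 31 bases. None of the 3 windows held TGACGTCA, the full cyclic AMP response element (1.65% of windows), or any of the E2F spellings TTTCCCGC, TTTCGCGC, TTTGCCGC and TTTGGCGC (2.79% of windows). No 2 of the searched motifs overlapped in these windows. The matches are letters only, and binding was not measured.

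The 3 genes differed in their levels under the drug alone. EGR1 averaged 3666 ± 218 in untreated HCT116 cells and 1784 ± 183 after oxaliplatin, and with E1A it averaged 13690 ± 1916 and 5637 ± 241 (SD, n = 3, scaled over 24 samples). JUNB averaged 5423 ± 317 untreated and 11738 ± 817 after oxaliplatin, and with E1A 27213 ± 1522 and 32369 ± 1296. HSPA1B averaged 9874 ± 1798 untreated and 8946 ± 484 after oxaliplatin, and 34082 ± 1688 and 24143 ± 1848 with E1A. Under oxaliplatin alone, all 3 EGR1 values lay below and all 3 JUNB values above those of untreated cells, and those of HSPA1B overlapped with them.

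**Figure D3:**
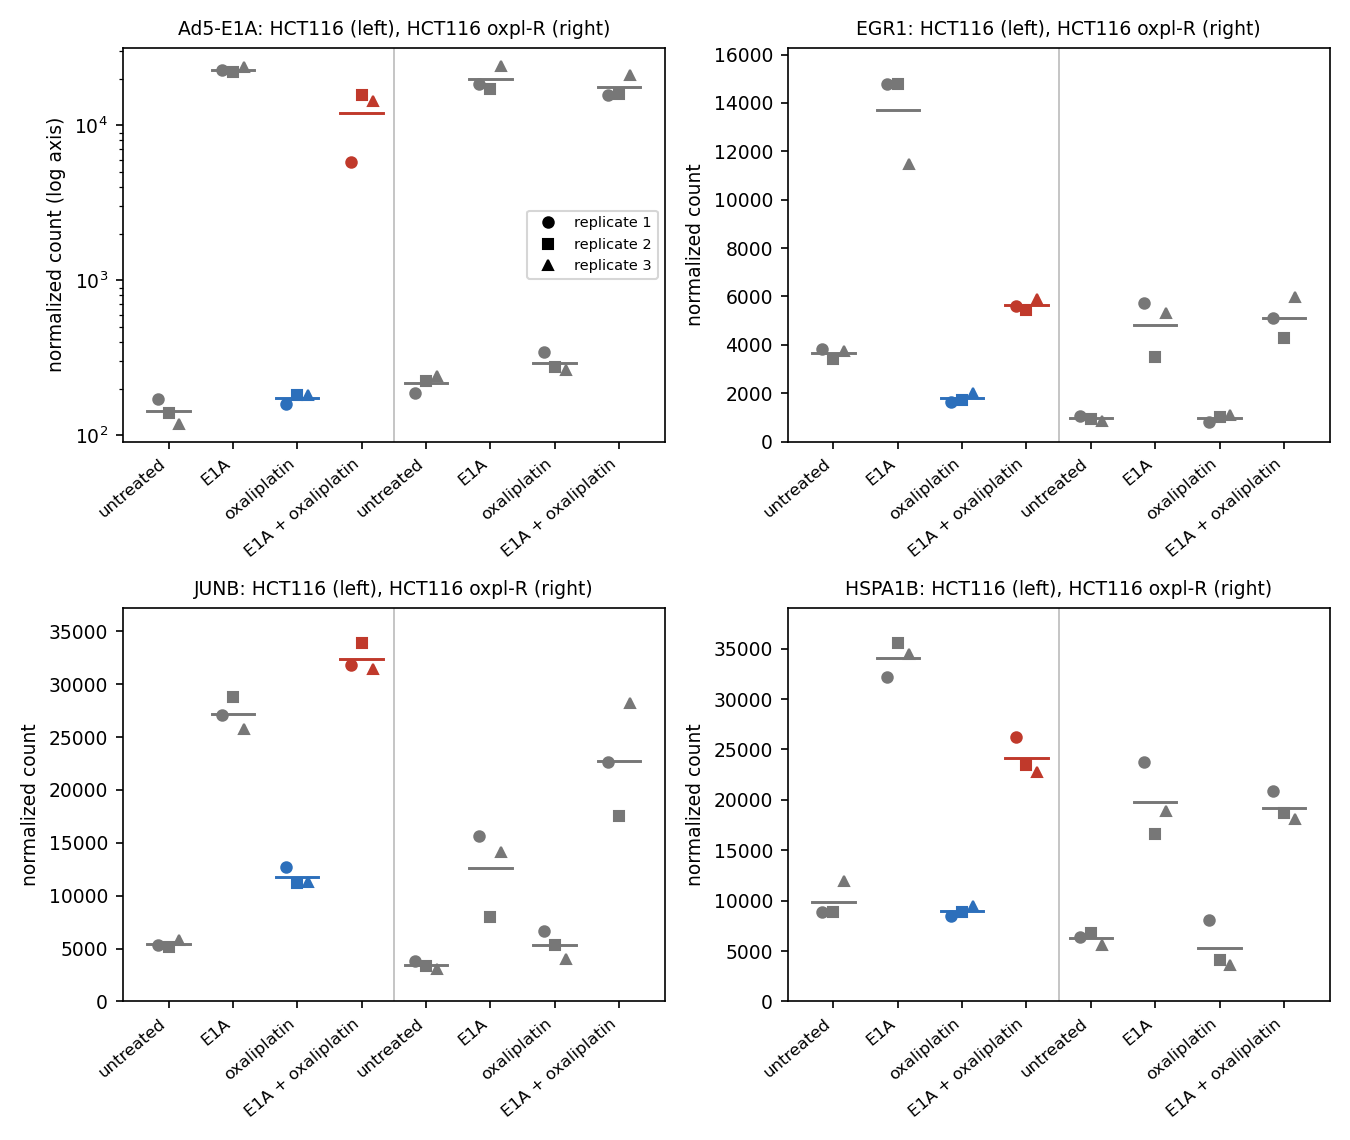
Normalized counts (vertical axes; log axis for Ad5-E1A, linear from 0 for the others) in each sample of the 8 conditions (horizontal axes), scaled over all 24 samples; horizontal bars are means of 3, blue marks HCT116 oxaliplatin and red HCT116 E1A + oxaliplatin. In each panel the 3 red points lie above the 3 blue ones, and for Ad5-E1A replicate 1 is the lowest red point at 5826 counts.

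Immediate early genes are the first to be transcribed after a stimulus, and AP-1 is a dimer of FOS, JUN and ATF family products. Of the 30 members of the list tested, 2 were higher (EGR1 and JUNB) and 0 were lower, against 4 and 0 of the 19169 genes tested. The median log2FC of the list was −0.05, against 0.01 over all genes tested. In 10 of the 30 all E1A + oxaliplatin samples lay above all oxaliplatin samples, against 3.12% of all genes, and in 3 below (2.81% of all genes). JUN, the founding AP-1 subunit, counted 1053, 1132 and 1010 without and 2143, 1901 and 1690 with E1A (log2FC 0.84 ± 0.19, edgeR adjusted p = 0.973). FOSB, a FOS family member, counted 150, 181 and 223 without and 536, 315 and 324 with E1A. Both were fully separated between the groups, and neither passed the test. EGR3 counted 73, 78 and 75 without and 199, 196 and 216 with E1A (log2FC 1.43 ± 0.26, edgeR adjusted p = 0.312). ARC, which encodes a synaptic protein and is a classic immediate early gene, counted 2097, 2024 and 2367 without and 5346, 4364 and 4201 with E1A. IER2 counted 13191, 12794 and 10569 without and 20769, 22950 and 20918 with E1A. Values of FOS (log2FC 0.47 ± 0.22) and ATF3 (0.39 ± 0.18) lay above 0 as well, whereas those of FOSL1 (−0.39 ± 0.17), MYC (−0.34 ± 0.19) and DUSP6, a phosphatase that restrains ERK (−0.43 ± 0.18), lay below; none of these 5 was called by edgeR. Of the genes named here, EGR3, FOSB, ARC, IER2 and DUSP6 were chosen after their values were seen, except that ARC also met the rule for the interaction described further on.

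Of the 18 genes that DESeq2 called higher, 9 more are described here: ARC, EGR3, IER2, JUN, HSPA1A, BRD2, GADD45B, HEY1 and NRARP. edgeR fitted on all 12 HCT116 samples called these 9 too. BRD2, a bromodomain reader of acetylated histones, counted 11512, 11157 and 12854 without and 25116, 22127 and 22406 with E1A (log2FC 0.97 ± 0.16, edgeR adjusted p = 0.242 over the 6 samples). GADD45B, a stress gene of the GADD45 family, counted 911, 961 and 604 without and 1751, 2379 and 2359 with E1A (log2FC 1.39 ± 0.24). HEY1 and NRARP, both targets of Notch signalling, were the others: HEY1 counted 17, 13 and 20 without and 60, 62 and 76 with E1A, and NRARP 1648, 1543 and 1386 without and 3108, 3101 and 2656 with E1A. CASP9, the initiator caspase of the mitochondrial pathway, counted 799, 815 and 546 without and 1170, 1537 and 1557 with E1A (log2FC 0.98 ± 0.23) and was called by neither edgeR nor DESeq2 on the 6 samples. BRD2, GADD45B, HEY1, NRARP and CASP9 were chosen after their values were seen.

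Of 28 heat shock proteins and cochaperones, 1 was higher (HSPA1B) and 0 were lower, against 4 and 0 of the 19169 genes tested. The median log2FC of the 28 was −0.04. Only HSPA1B and HSPA1A were fully separated upwards, against 3.12% of all genes, and 3 members were separated downwards, against 2.81%. HSPB1, the small heat shock protein HSP27, was one of the 3, with 19466, 19287 and 16709 without and 15087, 13932 and 12477 with E1A (log2FC −0.42 ± 0.17, not called; chosen after its values were seen).

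None of the E2F targets passed the test. Of 61 E2F targets of the G1 and S phases, 0 were called by edgeR, 1 had an unadjusted p below 0.05, and the median log2FC was 0.14, with 52 values above 0 and 9 below, against 9730 and 9439 over all genes tested. E2F1 itself counted 3669, 3241 and 3562 without and 4278, 3575 and 3365 with E1A, which overlap (log2FC 0.10 ± 0.17). MCM2, a subunit of the replicative helicase, had a log2FC of 0.06 ± 0.18, PCNA, the sliding clamp, of 0.20 ± 0.21, and RRM2, a ribonucleotide reductase subunit, of 0.14 ± 0.17. CCNE2, a cyclin of the G1/S transition, counted 255, 334 and 409 without and 225, 773 and 1152 with E1A, so that E1A + oxaliplatin replicate 1 was low where the other two were high (log2FC 1.11 ± 0.47). Its log2FC was 1.70 without the 2 libraries that stood apart (edgeR adjusted p = 0.0787), and its adjusted p was between 1.04e-18 and 1.00 over the alternatives. Among the 18 RB family and E2F genes 0 were called, with a median of 0.12. Among 45 genes of the G2 and M phases 0 were called, with a median of 0.11 that ran from 0.04 without E1A + oxaliplatin replicate 3 to 0.33 without oxaliplatin replicate 3. CDK1, the mitotic kinase, counted 2602, 3588 and 2383 without and 1269, 4543 and 6553 with E1A, and CCNB1, its cyclin, 2431, 3385 and 2525 without and 1524, 4482 and 4800 with E1A. In both genes E1A + oxaliplatin replicate 1 was the lowest of the 6 samples and replicates 2 and 3 the highest.

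p53 targets were not called in either direction: 0 of 53, with a median log2FC of −0.13 and 37 of 53 values below 0. All 3 samples with E1A were lower in 4 of these genes and higher in 1, against 2.81% and 3.12% of all genes. CDKN1A, the p21 inhibitor of cyclin-dependent kinases, counted 62438, 51470 and 50385 without and 47485, 36070 and 35353 with E1A, which do not overlap (log2FC −0.47 ± 0.19, edgeR adjusted p = 1.00). Without oxaliplatin the direction was the opposite, and E1A raised CDKN1A in HCT116 cells (log2FC 0.45 ± 0.09, edgeR adjusted p = 0.00394). GDF15, a secreted stress factor, counted 14828, 13614 and 12518 under oxaliplatin without and 11739, 8578 and 7924 with E1A (log2FC −0.54 ± 0.19). MDM2, the ubiquitin ligase of p53, had a log2FC of −0.14 ± 0.22, and BBC3, which encodes the death protein PUMA, of −0.19 ± 0.18. For scale, CDKN1A averaged 4221 ± 180 in untreated HCT116 cells (SD, n = 3, scaled over 24 samples), and 54941 ± 6567 after oxaliplatin and 39927 ± 6803 after E1A + oxaliplatin on the same scale. Of 16 CDK inhibitors and G1 cyclins, 0 were called (median −0.01).

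Of 19 BCL2 family genes 0 were called (median −0.07). BCL2L1, which encodes the survival protein BCL-XL, counted 14111, 12449 and 13042 without and 12124, 9299 and 8776 with E1A (log2FC −0.39 ± 0.18). PMAIP1, which encodes NOXA, counted 3439, 4059 and 1165 without and 1100, 4873 and 6042 with E1A, with the low sample of each group again the library that stood apart.

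Neither DNA repair list had a called member. The medians were 0.09 over 31 genes of homologous recombination and the Fanconi anemia pathway and −0.02 over 25 genes of nucleotide excision repair and translesion synthesis. The first of these was 0.49 without oxaliplatin replicate 3 and −0.02 without oxaliplatin replicate 1 or 2. BRCA1 counted 179, 208 and 747 without and 443, 289 and 242 with E1A, where the libraries that stood apart were the highest of their groups. ERCC1, the partner of the XPF nuclease that excises platinum adducts, had a log2FC of −0.11 ± 0.17. Of 27 genes whose products E1A binds, 0 were called (median −0.07), and EP300, which encodes p300, had a log2FC of −0.07 ± 0.34.

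The immune lists had 0 called members: 45 interferon-stimulated genes (median −0.02), 22 genes of MHC class I presentation (median −0.06) and 33 NF-kappaB targets (median 0.17, and −0.05 without both libraries that stood apart). ISG15, a ubiquitin-like product of interferon signalling, had a log2FC of −0.21 ± 0.21. PSMB9, an immunoproteasome subunit, counted 250, 216 and 141 without and 196, 423 and 296 with E1A, which overlap. TNFAIP3, the NF-kappaB inhibitor A20 and a gene of the second table, counted 116, 113 and 132 without and 150, 146 and 150 with E1A, fully separated but by a log2FC of only 0.30 ± 0.29.

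Lists of epithelial and matrix genes also had 0 called members, and their medians lay below that of all genes: −0.20 over 24 matrix and protease genes of AP-1, −0.17 over 40 junction and keratin genes and −0.09 over 22 WNT targets. In the matrix list, 7 of 24 genes were separated downwards, against 2.81% of all genes, and 1 upwards. PLAU, which encodes urokinase, counted 1524, 1590 and 1339 without and 1288, 1171 and 863 with E1A (log2FC −0.42 ± 0.21). KRT8, a keratin of simple epithelia, counted 222967, 202255 and 193140 without and 186327, 135107 and 131449 with E1A, also without overlap (log2FC −0.45 ± 0.19). EPCAM, the epithelial adhesion molecule, overlapped between the groups (log2FC −0.17 ± 0.22). DKK1, a secreted WNT antagonist, counted 15894, 18796 and 3455 without and 3209, 11013 and 11020 with E1A, with both low values in the libraries that stood apart.

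Metabolic, growth and stress lists were likewise without a called member. The medians were −0.01 over 55 MYC targets and ribosome biogenesis genes, −0.01 over 69 nuclear genes of oxidative phosphorylation, −0.22 over 13 genes of the mitochondrial genome, −0.06 over 40 genes of the integrated stress response, 0.08 over 25 genes of cholesterol synthesis, −0.22 over 28 NRF2 targets and metallothioneins and −0.04 over 45 replication-dependent histone genes. The median of the nuclear oxidative phosphorylation genes ran from −0.27 without oxaliplatin replicate 3 to 0.22 without E1A + oxaliplatin replicate 1. The mitochondrial genes held 17.1 to 19.5% of the counts without and 16% to 17.7% with E1A, and MT-CO1, a subunit of cytochrome c oxidase, had a log2FC of −0.37 ± 0.19. Of the NRF2 list, 7 of 28 were separated downwards and 0 upwards, against 2.81% and 3.12% of all genes. NQO1, a quinone reductase, overlapped between the groups with 13096, 14766 and 8131 against 5831, 12298 and 12382, and MT2A, a metallothionein, did not, with 5587, 4802 and 5121 against 4736, 4322 and 3511. NPM1, a nucleolar chaperone, counted 13028, 18169 and 16296 without and 7626, 27382 and 34551 with E1A. DDIT3, the stress factor CHOP, counted 112, 125 and 88 without and 54, 214 and 206 with E1A. In both, E1A + oxaliplatin replicate 1 was the lowest of all 6 samples.

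**Figure D4:**
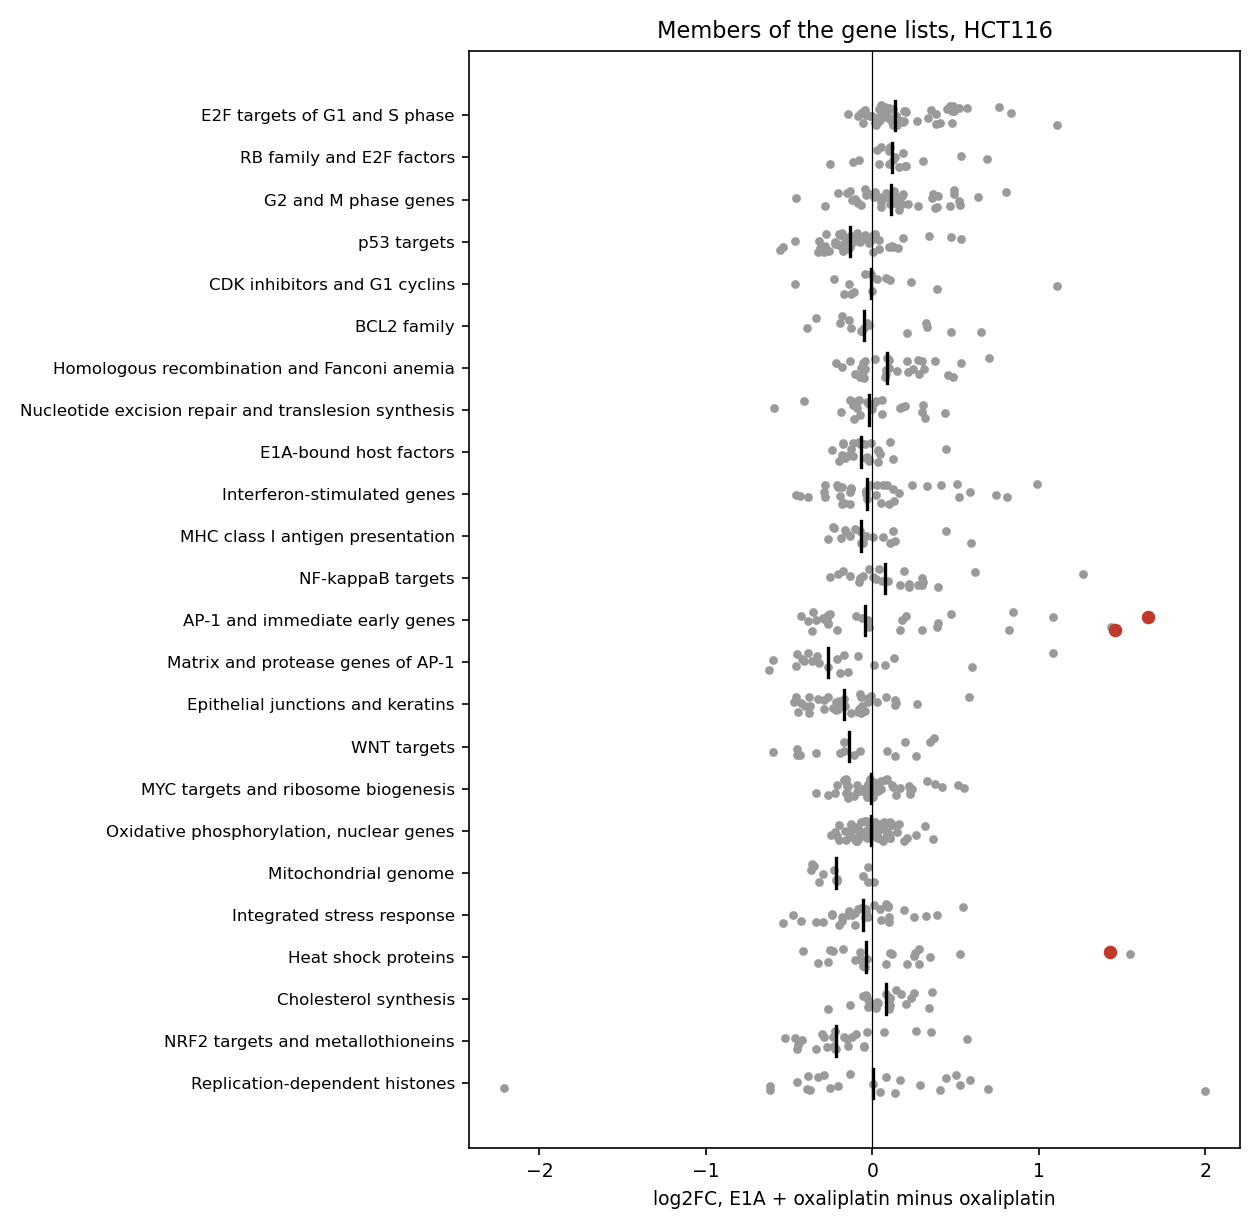
Log2FC of E1A + oxaliplatin minus oxaliplatin (horizontal axis) for members of the 24 gene lists without cell type markers that averaged at least 10 normalized counts; each point is a gene, red points are called and black bars are medians of the points drawn. EGR1, JUNB and HSPA1B are the 3 red points, and the points of every list straddle 0.

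The number of genes called depended on the 2 libraries that stood apart together with the samples that gave the spread. With both libraries kept, edgeR called 4 genes of the count table higher over the 6 samples. Over all 12 HCT116 samples it called 16 higher, with 0 lower in either fit. Without both, edgeR on the remaining 4 samples called 7 genes of the count table higher and 0 lower: the same 4 with GADD45B, BRD2 and ARC. On the second table the same fit called 8 higher, these 7 and IER2, and 5 lower: ACTB, FTH1, GDF15, KRT8 and KRT19, of which ACTB and FTH1 are named after their values were seen. When the spread was also taken from the untreated and E1A samples of HCT116 cells (10 samples, a fit added after seeing the data), 1732 of 20407 genes of both tables were higher (8.49%) and 616 lower (3.02%), and DESeq2 on the same samples then gave 1060 higher and 1100 lower in the count table against edgeR's 1513 and 456. On the genes up to SETP6 of the second table, edgeR gave 1265 higher and 819 lower and DESeq2 1125 and 1114. The split between the directions depended on the tool and on the table. In that fit 20 of 61 E2F targets, 24 of 45 G2 and M phase genes and 17 of 31 recombination genes were higher, with 1, 2 and 0 lower. CCNE2 had a log2FC of 1.71 ± 0.18, CDK1 of 0.85 ± 0.13 and NPM1 of 0.99 ± 0.13. The SE of this fit was nearly alike in genes with many counts, at 0.13 for CDK1, NPM1, KRT8 and GDF15. It therefore does not measure each gene's own spread. In the fit of 4 samples the SE was 0.21 for CDK1, 0.18 for NPM1, 0.08 for KRT8 and 0.09 for GDF15. 10 of 30 immediate early genes were lower and 6 higher, 8 of 53 p53 targets were lower and 8 higher (15 and 5 by DESeq2), and 10 of 40 junction and keratin genes were lower and 3 higher. CDKN1A fell by 0.67 ± 0.13 on the log2 scale and GDF15 by 0.78 ± 0.13. These changes rest on 2 samples a group and on leaving out libraries because of their values, and 1 of those libraries was the E1A + oxaliplatin sample with the lowest transgene level, so transgene level and transcript length profile cannot be told apart in it. Without both libraries the median log2FC also ran from −0.10 for transcripts under 1 kb to 0.14 for those over 7 kb, and with all 6 samples it lay between −0.05 and 0.01 in every length class.

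Addition of E1A was also measured in 2 comparisons that share no sample with this one. Transgene levels were not equal: 21989 to 23817 normalized counts in HCT116 cells without oxaliplatin, against 5826 to 15713 with it. In HCT116 oxpl-R cells with oxaliplatin they were 15721 to 21029. The induction time without oxaliplatin was not among the values used here. Without oxaliplatin, E1A against untreated HCT116 cells gave 534 of 19344 genes higher (2.76%) and 1189 lower (6.15%). Added to oxaliplatin in the resistant derivative, E1A raised 121 of 19745 genes (0.613%) and lowered 1 (0.00506%). On the whole second table these became 337 and 671 of 19318 genes without oxaliplatin, and 118 and 7 of 19723 in the resistant derivative. The common biological coefficient of variation was 0.127 and 0.294 in these comparisons, against 0.313 here. Counts of called genes therefore do not compare the size of the responses. Ad5-E1A, EGR1, JUNB and HSPA1B were called higher in both other comparisons. EGR1 had a log2FC of 1.85 ± 0.11 in HCT116 cells without the drug and 2.39 ± 0.23 in HCT116 oxpl-R cells with it. JUNB had 2.28 ± 0.10 and 2.09 ± 0.24, and HSPA1B 1.75 ± 0.11 and 1.88 ± 0.26. ARC was called in both as well, at 2.08 ± 0.10 and 2.22 ± 0.24, against 1.1 ± 0.18 in HCT116 cells under oxaliplatin.

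**Figure D5:**
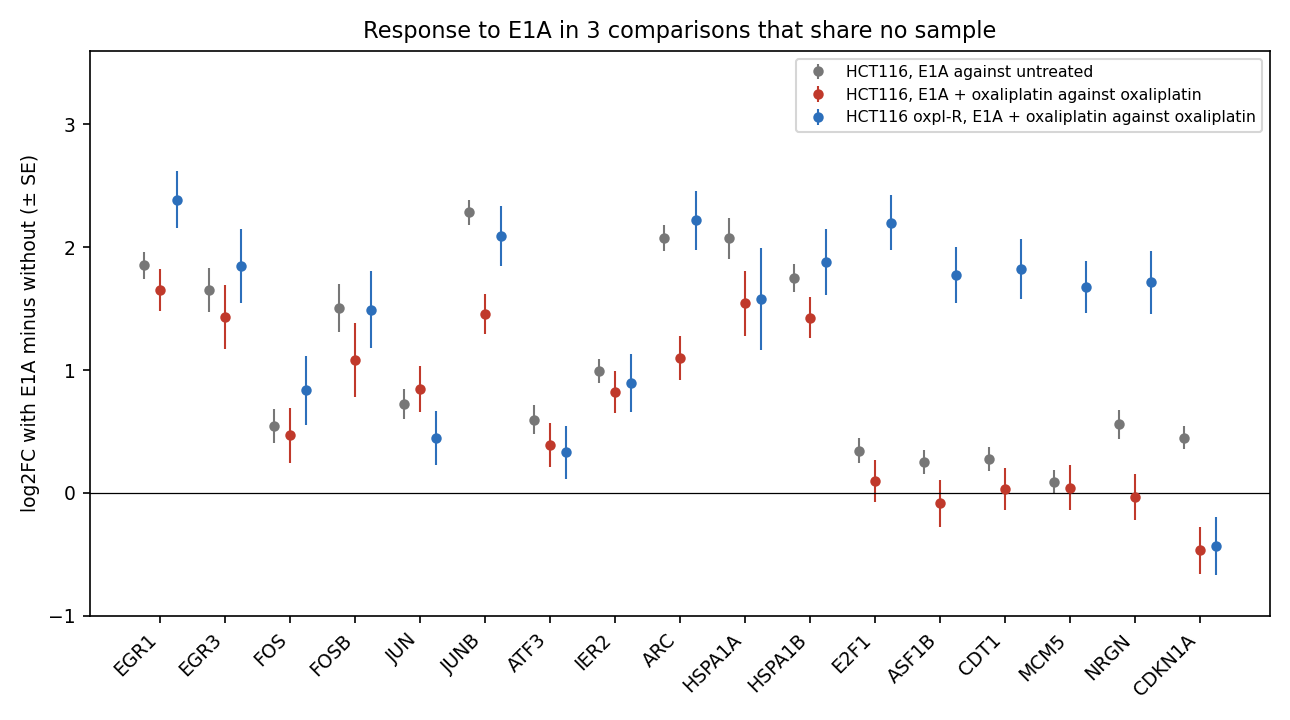
Log2FC with E1A minus without (vertical axis, error bars SE, 3 samples a group) of 17 genes (horizontal axis) in HCT116 cells without oxaliplatin (grey), HCT116 cells with oxaliplatin (red) and HCT116 oxpl-R cells with oxaliplatin (blue). EGR1, JUNB and HSPA1B lie above 1.4 in all 3 comparisons, while E2F1, ASF1B, CDT1, MCM5 and NRGN lie near 0 in red and between 1.68 and 2.20 in blue.

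Whether the response to E1A differed with oxaliplatin was tested by the interaction term over the 12 HCT116 samples. The lower transgene level under the drug was not accounted for in that term. edgeR found 0 of 17632 genes (0%), with 826 at an unadjusted p below 0.05, and DESeq2 found 14. The count rose to 527 of 17493 genes without E1A + oxaliplatin replicate 1, and to 2345 of 17341 without both libraries that stood apart. Both were left out because of their values, which leaves 2 samples in each oxaliplatin group. Without both, the E1A effect under oxaliplatin also varied with transcript length, as given above. In the fit of all 12 samples, the 6 genes with the smallest p were NSUN5P1, RENO1, PADI3, ATP6V1G2-DDX39B, DSP-AS1 and ARC. RENO1, a long noncoding RNA, averaged 154 ± 15 untreated and 718 ± 71 with E1A, but 213 ± 7.5 after oxaliplatin and 327 ± 77 with both (SD, n = 3; edgeR adjusted p of the interaction 0.250). DSP-AS1, antisense to the desmoplakin gene, averaged 43 ± 12 and 678 ± 107 without the drug and 68 ± 23 and 183 ± 83 with it (adjusted p = 0.284). PADI3, a peptidylarginine deiminase, rose from 28 ± 3.1 to 83 ± 16 without the drug (edgeR adjusted p = 0.0011) and stood at 116 ± 8.4 and 93 ± 10 with it. The log2 difference between the responses of ARC was −0.99 ± 0.20 (adjusted p = 0.284) and of JUNB −0.84 ± 0.18 (0.518), and DESeq2 called both. That of CDKN1A was −0.94 ± 0.21 (edgeR adjusted p = 0.654), and DESeq2 called it too. NSUN5P1, a pseudogene, and ATP6V1G2-DDX39B, a readthrough transcript, share sequence with other genes, so their values are uncertain. NSUN5P1 was at 0 in all 3 oxaliplatin samples and in E1A + oxaliplatin replicate 2, against 43 and 69 in the other two. ATP6V1G2-DDX39B counted 3.1, 0 and 7.4 without and 59, 51 and 74 with E1A.

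Between the lines the response to E1A under oxaliplatin differed in 2 of 17942 genes (0.0111%), E2F1 and ASF1B, a histone chaperone of DNA replication, both with a smaller response in HCT116 cells. There were 498 genes at an unadjusted p below 0.05, and DESeq2 called 24. E2F1 averaged 3502 ± 207 without and 3767 ± 478 with E1A in HCT116 cells under oxaliplatin, whereas in HCT116 oxpl-R cells it averaged 639 ± 68 without and 2941 ± 517 with E1A. The log2 difference between the responses was −2.10 ± 0.29 (edgeR adjusted p = 0.00547), and it stayed between −2.24 and −1.99, with adjusted p between 5.49e-09 and 0.0233, under all 18 alternatives. ASF1B averaged 6632 ± 355 and 6277 ± 1348 in HCT116 cells and 1032 ± 128 and 3548 ± 653 in HCT116 oxpl-R cells (difference −1.87 ± 0.31, adjusted p = 0.0323). In both genes the levels with E1A were closer between the lines than the levels without it. The next genes by p were CDT1 and MCM5, which license replication origins, with differences of −1.79 ± 0.32 and −1.63 ± 0.30, and NRGN, a calmodulin-binding protein, with −1.75 ± 0.32 (each adjusted p = 0.0531). AMIGO3, at 0 in all 3 HCT116 oxpl-R oxaliplatin samples, was the other gene named by the rule. The call of ASF1B failed without oxaliplatin replicate 1 (adjusted p = 0.0706), E1A + oxaliplatin replicate 3 (0.0999) or HCT116 oxpl-R E1A + oxaliplatin replicate 3 (0.111), and with genes kept by filterByExpr, a stricter filter on low counts (0.072). On the second table edgeR called E2F1 and CDT1 and not ASF1B. HCT116 oxpl-R oxaliplatin replicate 1 had 1.38% mitochondrial counts against 15.4% and 19.7% in the others of its group, and without it E2F1 and ASF1B were both still called (adjusted p = 0.0075 and 0.0385). Of the 61 E2F targets, 25 were higher with E1A in HCT116 oxpl-R cells under oxaliplatin and 0 lower, with a median log2FC of 1.05, beside 0.613% of all genes higher, 0.00506% lower and a median of 0.009 in that comparison. In HCT116 cells under oxaliplatin 0 were called, with a median of 0.14. Without oxaliplatin, E1A in HCT116 cells gave 1 of the 61 higher and 5 lower, with a median of 0.05. Of all genes in that comparison, 2.76% were higher and 6.15% lower. The difference between the lines over the list was not tested.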

How the data were processed

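RNA-seq of 24 HCT116 and HCT116 oxpl-R samples was used, 3 for each of 8 labelled groups. The authors trimmed reads with Trimmomatic, quantified them with Salmon 1.6.0 on GRCh38 transcripts and deposited estimated counts per gene, summarized with tximport. The second deposited table is named for TPM, but its columns sum to 28004261 to 42613322 and its values track the estimated counts, so it was treated as estimated counts too. Of the values, 15.9 to 30.4% were not whole; all were rounded. The tables were tested separately, and per-sample columns left unused numbered 0.

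Genes with a count in any sample were normalized by TMM and tested with edgeR 4.0.16 (quasi-likelihood, R 4.3.3), and DESeq2 1.42.0 was an alternative. Genes were called at a Benjamini-Hochberg adjusted p below 0.05, and counted also at |log2FC| above 1. The differences between conditions or lines are interaction terms in the same test. Positions came from GENCODE on the same build, joined by symbol for 32718 of 33113 genes. Scripts were tested on simulated data with less spread between replicates than the samples of the comparison and no libraries that stood apart. That test does not show how many true changes were missed here. Replicates are labelled biological; p-values measure the spread between these samples.

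The genes and 27 lists were chosen with earlier results of these data known. Named were up to 12 called genes with the largest and 12 with the smallest log2FC (4 and 4 after SETP6) that did not overlap between groups and held at least 50 counts in each sample of the higher group; up to 4 called members and preset key genes of each list; and the 6 genes of smallest p per interaction. Some genes that meet this rule are not reported here. Others are said to be chosen after their values were seen. Alternatives were another normalization, filter, tool, table and sample set, a replicate block and each replicate left out. 4 more were added after seeing the data: leaving out both libraries that stood apart, length offsets, and a fit of 10 HCT116 samples with edgeR or DESeq2.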

Additional observations from a re-analysis of the deposited data

Results flagged for a closer look

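The response to E1A under oxaliplatin differed between HCT116 and HCT116 oxpl-R cells, by the interaction test, in E2F1 and ASF1B. The log2 difference (HCT116 minus HCT116 oxpl-R) was −2.10 for E2F1 (edgeR adjusted p = 0.00547) and −1.87 for ASF1B (edgeR adjusted p = 0.0323). In HCT116 cells E2F1 averaged 3502 without and 3767 with E1A, and in HCT116 oxpl-R cells 639 without and 2941 with E1A. The 3 HCT116 oxpl-R oxaliplatin samples held the lowest E2F1 values of the series, 594 to 717 normalized counts, and the lowest ASF1B values, 915 to 1168. Whether the low level without E1A or the level with it sets the difference was not tested.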

How the results depend on the processing

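The 4 genes called at |log2FC| above 1 became 13 with DESeq2, 11 with all 12 HCT116 samples, 8 with length offsets, 1 at |log2FC| above 2, 352 in the 10-sample edgeR fit and 207 in the 10-sample DESeq2 fit, and 1 to 4 with 1 replicate left out. Genes lower, 0, became 1 with DESeq2, 1 with length offsets, 23 and 7 in the 10-sample edgeR and DESeq2 fits, and 0 to 1 with 1 replicate left out. After SETP6, genes higher were 2 with DESeq2, 2 with all 12 samples, and 56 and 47 in the 10-sample fits; genes lower were 7 and 4 there. Length offsets and the fits without both libraries were chosen after seeing the data. In the count table the 4 calls remained with RLE normalization and filterByExpr. On the second table they remained with RLE normalization, whereas filterByExpr called Ad5-E1A, EGR1 and JUNB and not HSPA1B. With the replicate block 0 genes of the count table were higher (Ad5-E1A adjusted p = 0.0666, EGR1 0.466, JUNB 0.466, HSPA1B 0.521 by edgeR). On the second table that fit called the transgene alone. Correlations of same-numbered deviations were −0.09, 0.40 and −0.14, and those of other pairs ran from −0.47 to 0.35. The 2 libraries that stood apart carry different replicate numbers, so these correlations cannot decide whether replicate numbers pair the samples. The interaction with oxaliplatin (0 genes) gave 14 with DESeq2, 1 with RLE, 7 with offsets, 2345 without both libraries, and 0 to 527 with 1 replicate left out. The interaction with the line (2 genes) gave 24 with DESeq2, 6 with RLE, 1 with filterByExpr, 17 with offsets, 6 with the replicate block, 7 without both libraries, and 1 to 15 with 1 replicate left out.

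Signs turned in genes that were not called. In the 10-sample DESeq2 fit, the 10-sample edgeR fit and without both libraries, MCM2 was at −0.16, −0.11 and −0.12, MDM2 at 0.0906, 0.15 and 0.14, BRCA1 at 0.40, 0.46 and 0.45, CDT1 at −0.17, −0.11 and −0.13, and MCM5 at −0.21, −0.16 and −0.17; E2F1 was at −0.0465 in the first and −0.0013 in the third. BRCA1 was at 0.0752 with the replicate block and 0.0801 in the second table. With 1 replicate left out, log2FC ranged from −0.28 to 0.0074 for ASF1B, −0.59 to 0.28 for B2M, −0.55 to 0.74 for BRCA1, −0.0827 to 0.0931 for CDT1, −0.0081 to 0.17 for E2F1, −0.44 to 0.31 for EP300, −0.10 to 0.15 for MCM2, −0.13 to 0.16 for MCM5, −0.30 to 0.12 for MDM2, −0.45 to 0.0398 for NQO1 and −0.0802 to 0.0574 for NRGN. The cause was not tested. Over all lists and alternatives, 353 list medians moved by less than the spread between replicates (1 SD of the list's median level) and 52 by more.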
